A study of Mus musculus with 160 samples.

Results

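RNA of the genes that fold proteins in the endoplasmic reticulum (ER) and that respond to its stress was followed in single stromal cells of mouse bone marrow. A set of 36 genes was chosen by name from knowledge of this pathway, with earlier results of these data already known. All 36 were found among the 22866 distinct gene names of the table. The names were split by role into 10 chaperones and cofactors, 5 disulfide isomerases, 7 degradation genes, 11 stress sensors and their targets, and 3 translocation genes. The cells came from C57BL/6J mice, 82 cells from young mice labelled 9 weeks old and 78 cells from old mice labelled 24 months old, while the protocol text gives 10 weeks and 2 years. They were sorted as mesenchymal stem cells that lack CD45, Ter119 and CD31 and carry CD140a and the leptin receptor, and were captured on a microfluidic chip (Fluidigm C1). No treatment or transgene is named for either age. No animal is named for any cell either, so each age counts as 1 sample, no test was made, and the standard deviations (SD) given below are over cells, which are not replicates of an age.

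Proteins bound for secretion or for membranes enter the ER through a channel, fold there with the help of chaperones, and gain disulfide bonds from isomerases. Proteins that fail to fold are pulled back out and destroyed, a route called ER-associated degradation. When unfolded protein builds up, the sensors encoded by Ern1, Eif2ak3 and Atf6 start the unfolded protein response, which raises chaperone genes, slows translation and, if it lasts, can kill the cell. Marrow stromal cells secrete chemokines, growth factors and matrix and so send much protein along this route.

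Values are FPKM, fragments scaled by transcript length and by the fragments mapped in the cell, as the authors deposited them. A gene was called listed in a cell at 1 FPKM or more, and measured when at least 10% of the 160 cells listed it. Shares of cells are given with exact (Clopper-Pearson) 95% intervals, which cover counting error only. No read numbers accompany these values, which leaves depth unknown. The named genes listed per cell numbered 129 to 2129 at the young age (median 1114.5) and 193 to 2779 at the old age (median 1160). Gapdh was at exactly 0 in 49 young and 42 old cells, so a member at 0 is described as listed at 0 and no more. Marrow stromal markers fitted the label: 80 of 82 young and 71 of 78 old cells listed at least 3 of 7. The gated receptor RNA Pdgfra (CD140a) was listed in 34.1% of young and 38.5% of old cells. All 6 endothelial markers were listed in 0 cells. Of 10 hematopoietic markers, 7 were in 0 cells of either age, among them Ptprc (CD45). Cd68 was in 3 young and 2 old cells, and S100a8 and S100a9 were each in 1 young and 1 old cell. The highest of these values was 182.2 FPKM, for S100a8 in an old cell. Of 6 erythroid markers, 4 were in 0 cells, and Hba-a1 and Epor were each in 1 young and 1 old cell. Of the plasma and B cell markers, which matter here because plasma cells are packed with ER, 8 of 10 were in the table and 6 of these were in 0 cells of either age. The others were Sdc1, which stroma also expresses (28 young and 16 old cells), and Igj (0 and 1). Their summed level ran from 0 to 76.6 FPKM in young and from 0 to 57.4 in old cells. Xist was listed in 54 of the old cells and in 0 young ones, while Y-linked RNA was listed in 34 of the young cells and in 0 old ones. The protocol counts 83 valid wells of 96 for young and 79 of 96 for old cells, separately for each age. Age, sex-linked RNA and capture therefore cannot be told apart in any comparison that follows.

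Of the measured genes, 5 of 7 chaperones and cofactors, 2 of 3 translocation genes, 1 of 5 isomerases, 0 of 7 degradation genes and 1 of 4 sensors and targets were higher in old cells by at least 0.5 on a log2 scale. The measure was the difference of mean log2(FPKM + 1), old minus young, which weighs every cell alike. Of the 36 members, 26 were measured, and 9 of these 26 were higher in old cells by 0.5 or more, against 8.22% of the 3189 measured genes. None of the 26 was lower by 0.5 or more, against 10.3% of measured genes. The difference lay above 0 in 22 members, or 84.6% of the measured ones, against 47.5% of measured genes. The median over measured members was 0.33, and over all measured genes it was -0.02. By role the medians were 0.93 for 7 measured chaperones and cofactors, 0.89 for 3 translocation genes, 0.41 for 5 isomerases, 0.10 for 7 degradation genes and -0.06 for 4 sensors and targets. The members were chosen with earlier results of these data known, and a gene that few young cells list can pass the filter through its old cells alone. These counts therefore describe the set and are no test of it. Of the other 10 members, 8 were listed in 1 to 13 of the 160 cells, and Trib3 and Chac1 in 0.

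**Figure D1:**
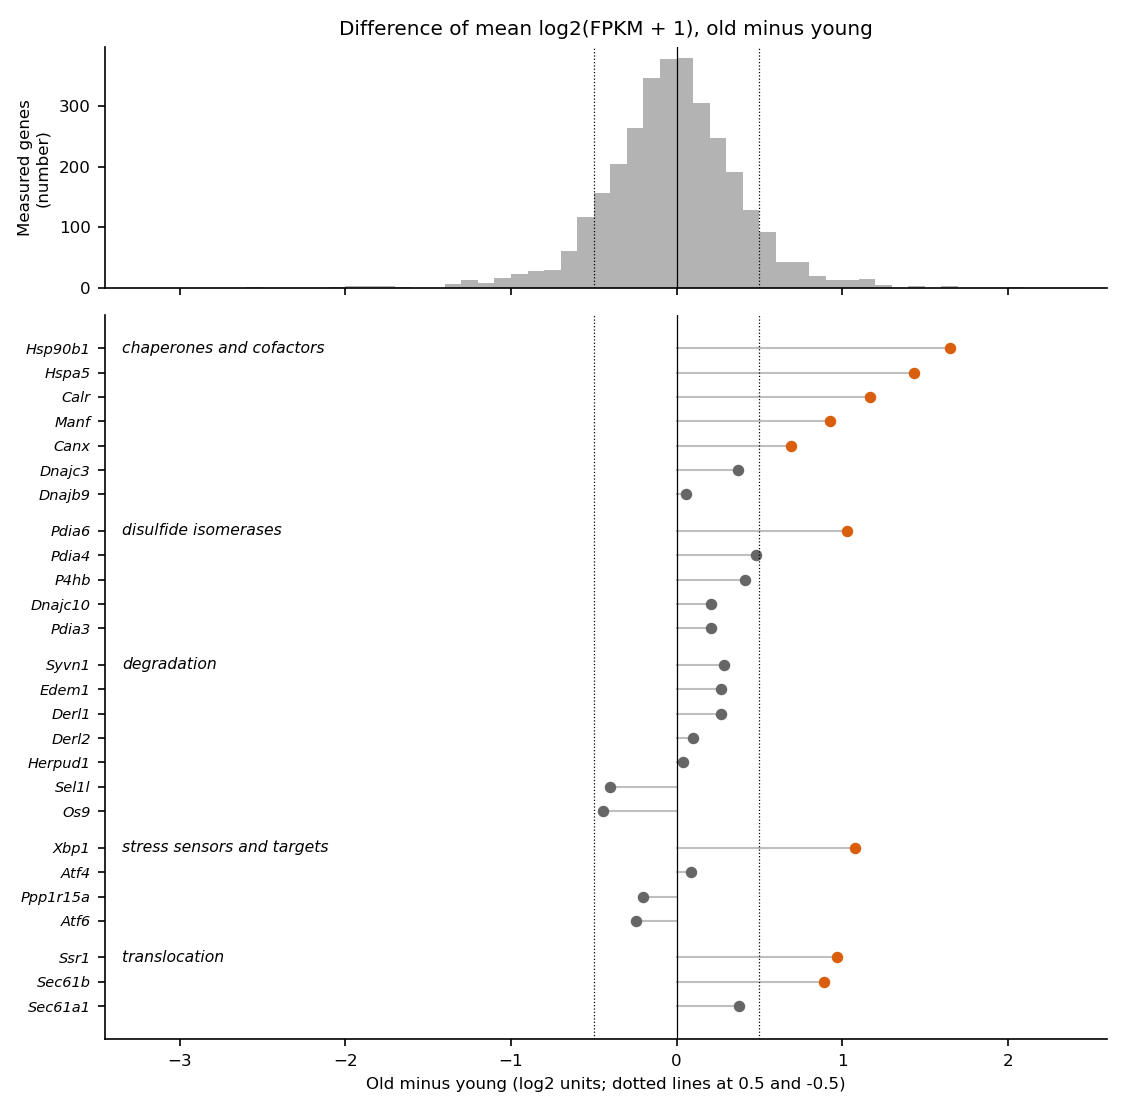
Top, number of measured genes (y axis) by difference of mean log2(FPKM + 1), old minus young (x axis, log2 units); bottom, each of the 26 measured members by role, with orange points at 0.5 or more. The 9 orange members lie between 0.69 and 1.65, and no member lies below -0.45.

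Hspa5 encodes BiP, the main chaperone of the ER and the protein that holds the stress sensors inactive. Its value ran from 0 to 612.6 FPKM with a median of 2.1 in young cells, and from 0 to 3508 with a median of 22.7 in old cells. The ranges overlapped throughout, with 23 young and 10 old cells at 0. Mean log2(FPKM + 1) was 2.76 ± 2.81 (SD, 82 cells) in young and 4.2 ± 3.01 (78 cells) in old cells, a difference of 1.43. The share of cells listing it was 57.3% of young (45.9 to 68.2) and 76.9% of old cells (66 to 85.7). Within the cells that listed it, the median level was 27.1 FPKM in young and 57.2 in old cells. Both the number of listing cells and the level in them were thus higher in old cells.

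Hsp90b1 encodes Grp94, the ER member of the Hsp90 family, which folds integrins and insulin-like growth factors among others. Its median was 7.71 FPKM in young cells (0 to 407.7) and 43.3 in old cells (0 to 49680). Its difference of mean log2, 1.65, was the largest of the 36 members and exceeded that of 99.7% of measured genes. The share of cells listing it was 62.2% (50.8 to 72.7) and 82.1% (71.7 to 89.8). The highest old cell held 86.3% of its FPKM summed over all cells, and trimming 5% of the cells at each end of each age gave a difference of 1.67.

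Calreticulin and calnexin are lectins that hold newly made glycoproteins until they fold. Calr, the soluble one, was listed in 41.5% of young (30.7 to 52.9) and 53.8% of old cells (42.2 to 65.2). Its median over all cells was 0.01 FPKM in young (highest 182.6) and 2.62 in old cells (highest 268.8). In listing cells the median was 9.97 and 47.7 FPKM, and its difference of mean log2 over all cells was 1.17. The ranges of both ages overlapped. Canx, the membrane-bound one, was listed in 68.3% of young and 73.1% of old cells, and its medians were 15.9 and 51.5 FPKM. Its difference of mean log2 was 0.69. One young cell at 217818 FPKM held 95.2% of the summed FPKM of Canx, and the log2 ratio of mean FPKM, which this cell sets, had the opposite sign (-4.97).

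Manf, a small secreted protein that binds BiP, was listed in 12.2% of young (6.01 to 21.3) and 32.1% of old cells (21.9 to 43.6), and these intervals do not overlap. Intervals lay apart in this direction for 2 of the 26 measured members, Manf and Xbp1, against 0.909% of measured genes, and in the opposite direction for 0, against 2.2%. The median in listing cells was 31.2 FPKM for Manf in 10 young cells and 24.2 in 25 old ones, so its difference of 0.93 went with more listing cells and not with a higher level in them. Dnajc3, which encodes the BiP partner p58IPK, was listed in 20.7% and 25.6% of cells (difference 0.37), and Dnajb9, which encodes the BiP partner ERdj4, in 11% and 12.8% (0.06). Hyou1, the nucleotide exchange factor of BiP, missed the filter with 1 young and 11 old cells. Its shares, 1.22% (0.0309 to 6.61) and 14.1% (7.26 to 23.8), also lay apart, but at a highest value of 17.4 FPKM. Dnajb11, another BiP partner, was listed in 7 young and 4 old cells. Sdf2l1, which works with it, was listed in 4 young and 5 old cells, whereas any value above 0 was found in 4 young and 22 old cells.

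**Figure D2:**
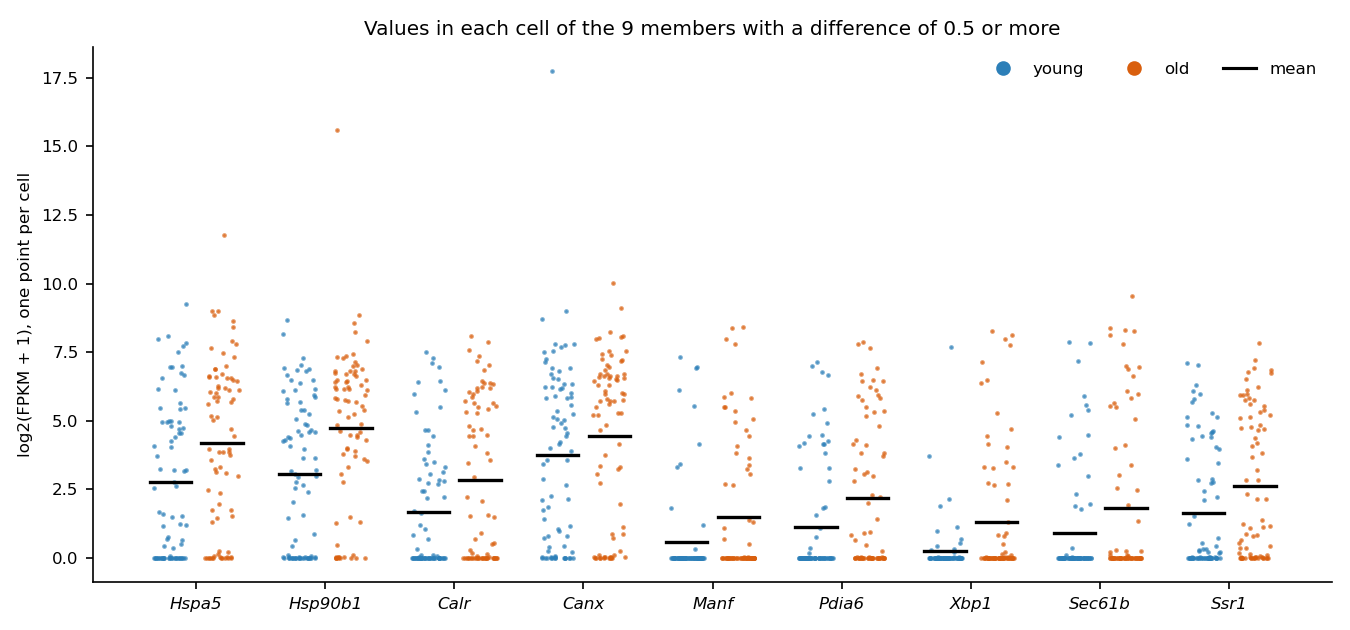
log2(FPKM + 1) (y axis) in each cell for the 9 members with a difference of 0.5 or more (x axis), young cells in blue and old cells in orange, with a black line at the mean over cells. For Hspa5 the mean is 2.76 in young and 4.2 in old cells, and in all 9 genes the cells of both ages span overlapping ranges that start at 0.

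A sequence element known from the promoters of ER chaperone genes, the ER stress response element (ERSE), was looked for in the 250 bases before each start site. The ERSE is bound by ATF6 and XBP1 together with the general factor NF-Y. It is CCAAT, then 9 bases of any kind, then CCACG, searched on both strands, so every match also holds these shorter words. Promoters came from RefSeq (build GRCm38.p6), whereas the submitters' notes name mm9, and no position is compared between the builds. The search was chosen after the values of the members were known. The table held a promoter for 31 of the 36 members, and 8 of these 31 (25.8%) had the element, against 37 of all 32851 promoters (0.113%). Members are counted here as genes and the rest as promoters. The element is known from promoters of genes like these, so the higher share among members restates the choice of genes. The matches are shown because 5 of the 9 members that were higher in old cells hold one. They read 5′ to 3′ along the element, with the fixed letters in capitals.
Hspa5: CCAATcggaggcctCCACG
Hsp90b1, far match: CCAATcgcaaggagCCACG
Hsp90b1, near match: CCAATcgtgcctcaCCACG
Calr: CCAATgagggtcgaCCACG
Canx: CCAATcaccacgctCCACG
Pdia6: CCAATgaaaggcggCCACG
Dnajc3: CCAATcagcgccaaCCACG
Syvn1: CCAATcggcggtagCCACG
Creld2: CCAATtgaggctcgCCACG

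The matches lay between 212 and 26 bases before the start site. Those of Calr and Creld2 and the near match of Hsp90b1 lay on the reverse strand, so that they appear in the promoter as CGTGG before ATTGG. The 3 promoters of the chaperones with the largest differences are given in full in the direction of the gene, with the fixed letters of each match in capitals. That of Hspa5 is chr2:34771840-34772089 on the plus strand, that of Hsp90b1 is chr10:86705445-86705694 on the minus strand and that of Calr is chr8:84846932-84847181 on the minus strand.
Hspa5: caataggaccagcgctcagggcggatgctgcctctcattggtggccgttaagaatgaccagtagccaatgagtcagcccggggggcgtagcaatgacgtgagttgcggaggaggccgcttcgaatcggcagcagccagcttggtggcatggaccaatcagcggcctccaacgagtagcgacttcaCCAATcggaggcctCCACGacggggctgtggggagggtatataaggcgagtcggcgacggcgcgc
Hsp90b1: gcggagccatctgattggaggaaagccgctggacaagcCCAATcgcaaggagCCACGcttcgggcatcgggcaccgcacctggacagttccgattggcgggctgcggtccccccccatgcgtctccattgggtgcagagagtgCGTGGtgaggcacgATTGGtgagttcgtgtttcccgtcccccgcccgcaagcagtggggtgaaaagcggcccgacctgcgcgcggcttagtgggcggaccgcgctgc
Calr: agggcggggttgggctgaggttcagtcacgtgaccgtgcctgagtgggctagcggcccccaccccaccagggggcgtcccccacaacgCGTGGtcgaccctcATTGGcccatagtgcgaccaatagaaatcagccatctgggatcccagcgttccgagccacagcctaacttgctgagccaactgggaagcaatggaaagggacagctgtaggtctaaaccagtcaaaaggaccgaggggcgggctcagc

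Of the 8 members with the element, 7 were measured, and their differences ran from 0.29 for Syvn1 to 1.65 for Hsp90b1 with a median of 1.03. The 15 measured members whose promoter held no match ran from -0.45 to 1.08 with a median of 0.21. Of them 3, Xbp1, Ssr1 and Sec61b, were higher by 0.5 or more. The 2 sets also differed in how many cells listed them. Median shares were 41.5% of young and 53.8% of old cells with the element, and 19.5% and 21.8% without a match. The part of this gap in the differences was not tested. For Hyou1, Manf, Derl1, Atf6 and Sec61a1 the table held no promoter. Outside the 36 genes, 1 measured row had a promoter with the element, the joint row of Gm6793 and Hnrnpa3, with a difference of -0.11. The shorter ERSE-II, which is ATTGG, 1 base of any kind and CCACG, was found in 1 member, Herpud1, and in 0.0304% of all promoters. TGACGTGG, a word bound by XBP1, was in 0 members and 0.563% of promoters. The ATF4 element TGATGNAAN was in 3 members, Asns, Chac1 and Herpud1, which is 9.68% of the members against 3.44% of promoters. A match describes letters only and no binding was measured.

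Among the disulfide isomerases, Pdia6 stood apart in size. Pdia6, an isomerase that also acts on the sensor encoded by Ern1, was listed in 26.8% of young (17.6 to 37.8) and 43.6% of old cells (32.4 to 55.3). Its highest value was 138.7 FPKM in young and 232.5 in old cells, its medians were 0 and 0.29, and in listing cells 17.1 and 37. Mean log2 was 1.15 ± 2.07 in young and 2.18 ± 2.66 in old cells, a difference of 1.03. Pdia4, listed jointly with the microRNA gene Mir704, was in 8 young and 17 old cells (difference 0.48). P4hb, the classic protein disulfide isomerase and a subunit of collagen prolyl hydroxylase, was in 36.6% and 39.7% of cells (0.41). Pdia3, which works with calnexin and calreticulin on glycoproteins, was in 21 young and 21 old cells (0.21), and Dnajc10, a reductase that unlocks wrong bonds before degradation, in 16 and 17 (0.21). All 5 lay above 0, and 1 of them passed 0.5.

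Of the 3 translocation genes, 2 passed 0.5. Ssr1, a subunit of the translocon-associated protein complex, was listed in 37.8% of young (27.3 to 49.2) and 55.1% of old cells (43.4 to 66.4). Its medians were 0.08 and 1.48 FPKM, its highest values 137.2 and 228.1, and its difference of mean log2 was 0.97. Sec61b, the small beta subunit of the Sec61 channel, was listed in 20.7% and 32.1% of cells, with a median of 20.0 FPKM in listing young and 56.4 in listing old cells. Its medians over all cells were 0 and 0, its highest values 235.8 and 749.1 FPKM, and its difference was 0.89. Sec61a1, the subunit that forms the pore, was in 13.4% and 21.8% of cells (difference 0.37).

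The degradation genes were mixed, with 5 above 0 and 2 below. None of the 7 passed 0.5 on either side, and shares were higher in old cells for 3 and in young cells for 4. Os9, a lectin that hands misfolded glycoproteins to the ligase complex, was listed in 19.5% of young (11.6 to 29.7) and 8.97% of old cells (3.68 to 17.6), a difference of -0.45. Sel1l, the scaffold of the same complex, was in 23.2% and 14.1% (-0.40). Syvn1, the ligase Hrd1 itself, went the other way, with 6 young and 11 old cells (0.29), as did Edem1, which marks glycoproteins by trimming their mannose, with 6 and 11 (0.27). Herpud1, an ER stress target that recruits substrates to Hrd1, was in 20 young and 18 old cells (0.04). Derl1 and Derl2, membrane proteins of the exit route, were in 17 and 16 and in 13 and 13 cells, with differences of 0.27 and 0.10.

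Of the sensors and their targets, Xbp1 was the one with a large difference. Xbp1 encodes the transcription factor that the Ern1 product switches on by splicing its RNA, and it drives chaperone and secretory genes. It was listed in 6.10% of young (2.01 to 13.7) and 26.9% of old cells (17.5 to 38.2). Its medians were 0 and 0, its highest values 204.1 and 306.3 FPKM, and in listing cells its median was 3.46 FPKM in 5 young and 17 in 21 old cells. Mean log2 was 0.25 ± 0.99 in young and 1.33 ± 2.38 in old cells, a difference of 1.08. FPKM per gene do not separate the spliced from the unspliced form.

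The sensor RNAs themselves were rare. Atf6 was listed in 10 young and 6 old cells (difference -0.24), Eif2ak3, which encodes the kinase PERK, in 1 and 9, and Ern1, which encodes IRE1, in 1 and 0. Atf4, the factor translated when PERK is active, was in 19 young and 20 old cells (0.09). Its target Ddit3, the death-linked factor CHOP, was in 6 and 7 cells, and Ppp1r15a, which ends the translation block, in 11 and 7 (-0.20). Asns, asparagine synthetase, was in 2 and 0 cells. Trib3 and Chac1, targets of the ATF4 and CHOP arm, were listed at 0 in all 160 cells, where 3 cells would make 3.66% of young and 3.85% of old cells and the exact intervals reach 4.4% and 4.62%. These bounds concern cells that list the gene at 1 FPKM, not cells that express it. Creld2, a secreted stress protein, was in 0 young and 6 old cells (7.69%, 2.88 to 16). Of the 4 measured genes of this group, 1 was thus past 0.5, and Atf4, Atf6 and Ppp1r15a lay between -0.24 and 0.09.

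**Figure D3:**
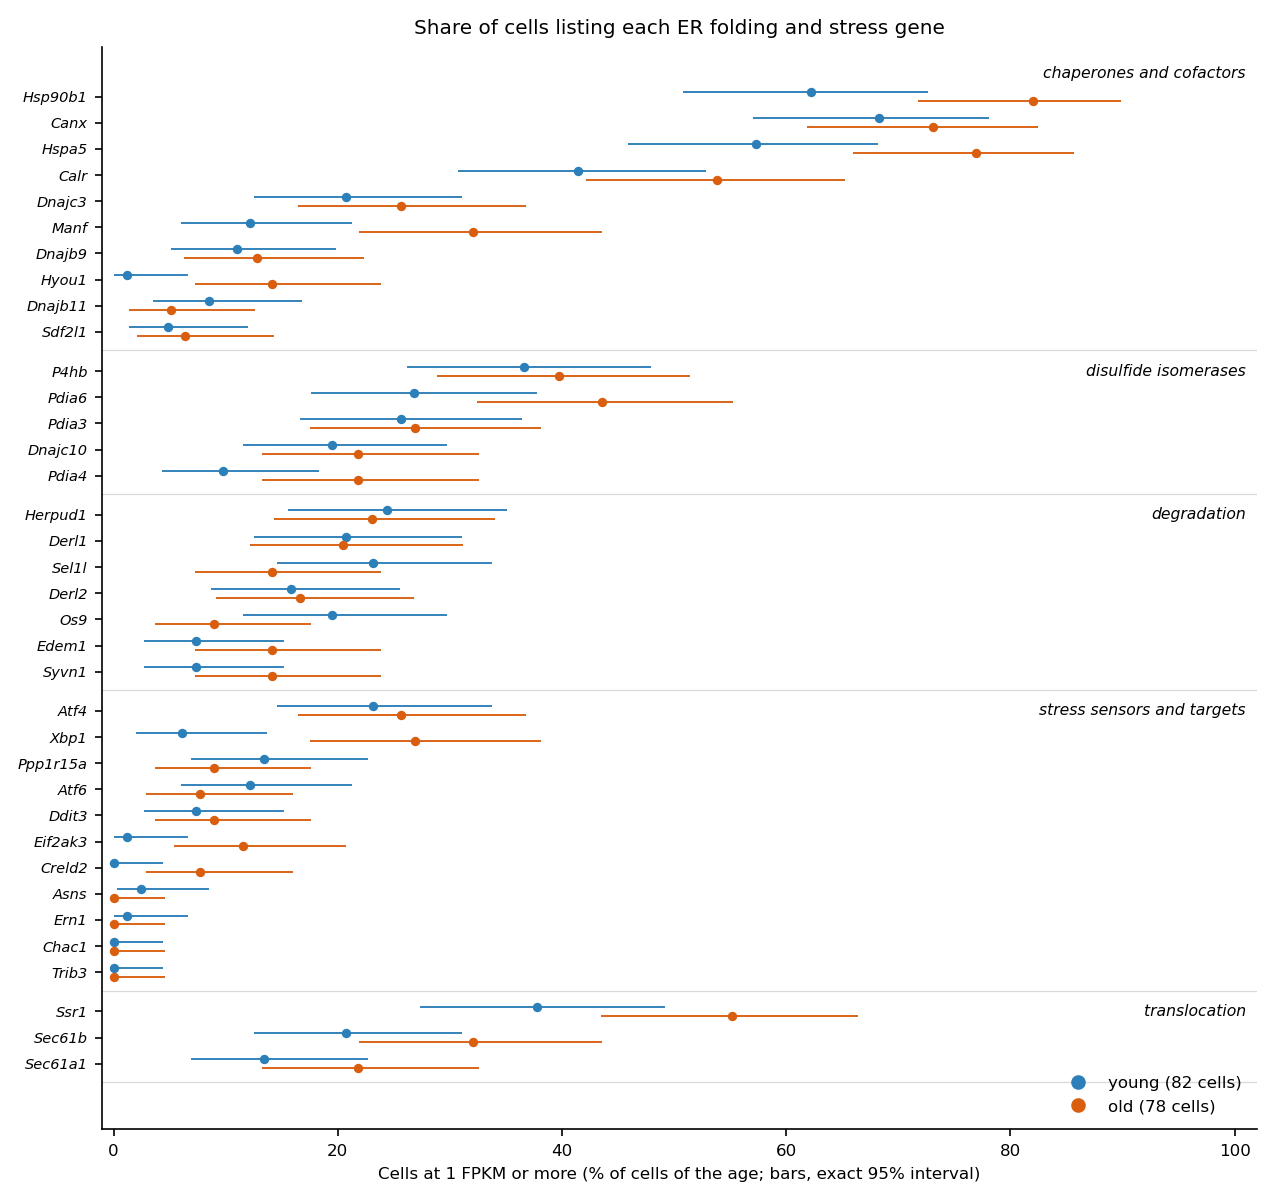
Share of cells at 1 FPKM or more (x axis, % of the cells of the age) for each of the 36 genes (y axis) by role, young in blue and old in orange, with exact 95% intervals as bars. Xbp1 (6.10% and 26.9%), Manf (12.2% and 32.1%) and Hyou1 (1.22% and 14.1%) are the genes whose intervals do not overlap.

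At the median, old cells listed more of the 36 genes than young cells. Young cells listed a median of 6.5 members (quartiles 4 and 9, range 0 to 14) and old cells 9 (5 and 11, range 0 to 18). At least 10 members were listed in 20 young (24.4%, 15.6 to 35.1) and 36 old cells (46.2%, 34.8 to 57.8). As a share of all genes a cell listed, the members made up a median of 0.613% in young and 0.806% in old cells. Hspa5, Hsp90b1 and Calr were all 3 listed in 14 young (17.1%, 9.66 to 27) and 34 old cells (43.6%, 32.4 to 55.3), and none of the 3 in 9 young and 4 old cells. These 3 are the chaperones with the largest differences, so their joint listing restates that choice.

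**Figure D4:**
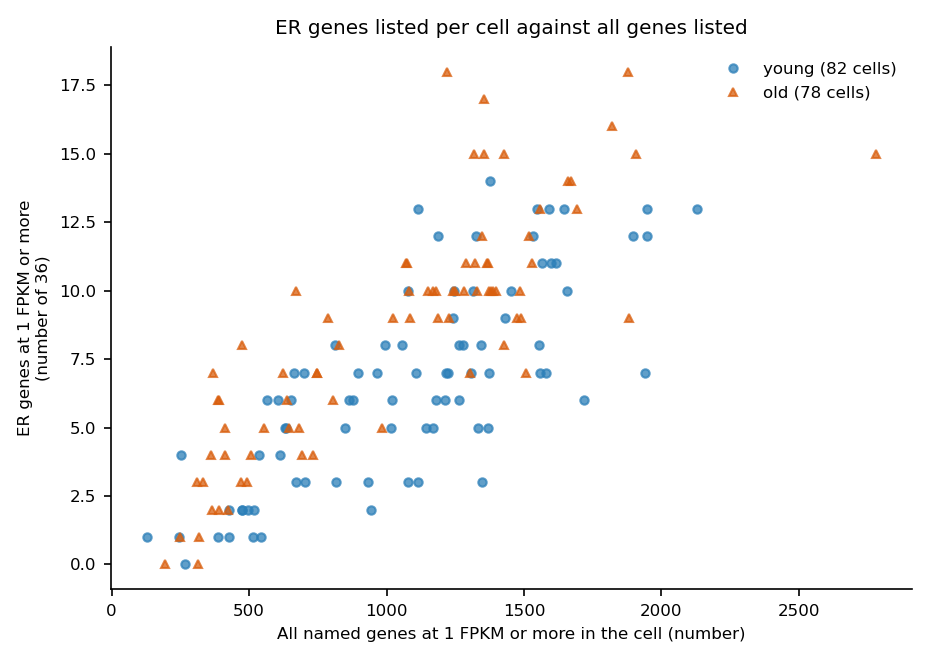
Number of the 36 genes listed in a cell (y axis) against the number of all named genes listed in it (x axis), 1 point per cell, young as blue circles and old as orange triangles. Cells that list more genes list more members, and the median is 6.5 members in young and 9 in old cells.

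Cells that list more genes list more members, so the cells were divided into 3 bands of nearly equal size by the number of genes listed. In the low band 24 young cells listed a median of 2.5 members and 30 old cells 4. In the middle band 32 young cells listed 7 and 21 old cells 10, at medians of 1111.5 and 1180 genes per cell. In the high band 26 young cells listed 10.5 and 27 old cells 11, while the young cells had more genes (medians of 1561.5 and 1486). The median difference over measured members was 0.19, 0.72 and 0.34 in the low, middle and high bands, and that over all measured genes 0.01, 0.07 and -0.05. The median over members was therefore above 0 in the 3 bands, and largest in the middle one. Of the 26 members, 17 lay above 0 in the low, 22 in the middle and 17 in the high band. This count was not made over all measured genes by band.

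Single members followed different courses across the bands. Hsp90b1 was listed in 20 of 26 young and 27 of 27 old cells of the high band, and in 11 of 24 and 21 of 30 of the low band. Hspa5 had its largest difference of mean log2 in the low band, 2.40, where 7 of 24 young and 17 of 30 old cells listed it, and 0.77 in the high band. Xbp1 was in 1 of 26 young and 10 of 27 old cells of the high band, and Manf in 6 and 14. Sec61b was listed in 1 of 30 old and 2 of 24 young cells of the low band, against 10 of 21 and 4 of 32 of the middle band. Canx in the high band was in 23 young and 23 old cells.

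**Figure D5:**
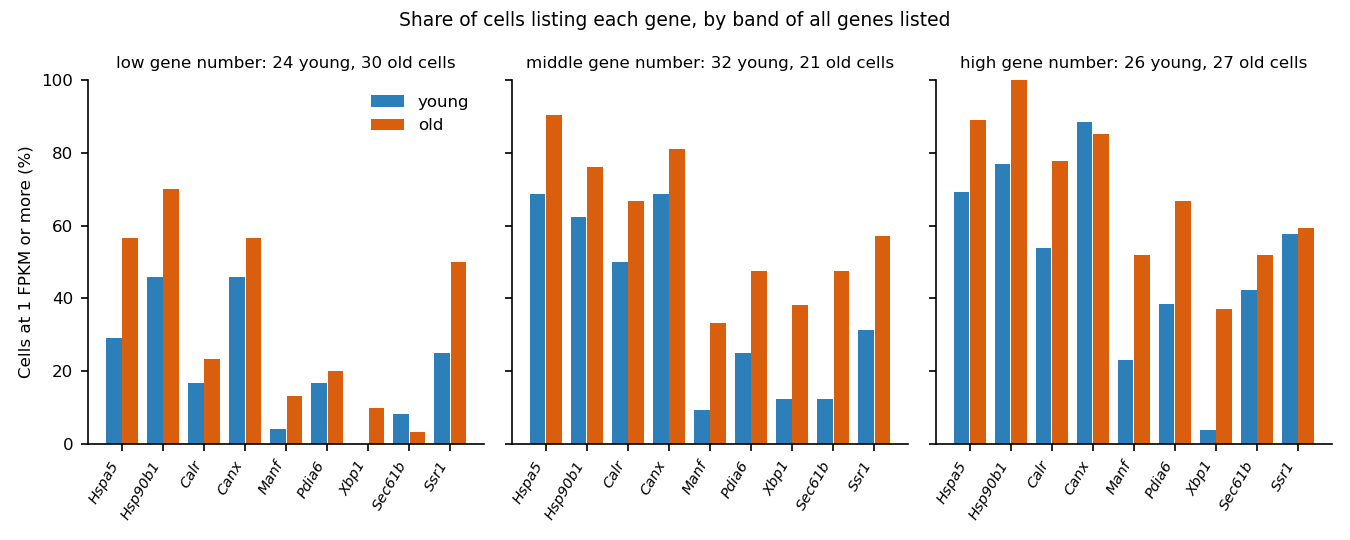
Share of cells at 1 FPKM or more (y axis, %) for the 9 members with a difference of 0.5 or more (x axis), young in blue and old in orange, in 3 panels by the number of all genes listed per cell. The 9 genes were picked by their difference over these same cells, so higher old bars largely restate that choice. Old bars are higher than young ones for most genes in each panel. The exceptions are Sec61b in the low panel (3.33% of old, 8.33% of young cells, from 1 and 2 cells) and Canx in the high panel (85.2% and 88.5%, from 23 and 23 cells).

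The other 25 measured members were compared between cells with and without Hspa5, which also differed in the number of genes listed. The share of cells listing a member was higher with Hspa5 for 25 of 25 in old and for 23 of 25 in young cells. The median gap was 13.9 and 8.45 percentage points. No such count was made over all measured genes, so these counts cannot be read as a trait of the ER genes. The gaps of single members differed between the ages. In old cells Hsp90b1 was in 53 of 60 cells with Hspa5 and in 11 of 18 without it. Calr was in 37 of 60 and 5 of 18, P4hb in 28 and 3, Pdia3 in 20 and 1, and Pdia6 in 30 and 4. In young cells Hsp90b1 was in 30 of 47 cells with Hspa5 and 21 of 35 without it. There Calr was in 20 and 14, P4hb in 20 and 10, Pdia3 in 13 and 8, and Pdia6 in 14 and 8. Wider gaps in young cells were those of Sec61b, listed in 16 of 47 cells with Hspa5 and 1 of 35 without it, Ssr1 (23 and 8), Os9 (13 and 3) and Manf (9 and 1). Manf had a wide gap in old cells too, with 22 of 60 and 3 of 18. The median number of genes listed was 1245 in old cells with Hspa5 and 446.5 in those without, and 1211 and 934 in young cells. The part of this gap in the co-listing was not tested. Relative to the genes a cell listed, the other members made up a median of 0.747% in old cells with Hspa5 and 0.685% without. In young cells these medians were 0.58% and 0.45%. Spearman correlations between pairs of measured members were weak, with a median over 325 pairs of 0.13 across 82 young and 0.15 across 78 old cells, beside 0.11 and 0.12 over all pairs of measured genes. The values of a cell share its depth and its scaling, so these are descriptions. The highest pair was Pdia3 with P4hb in young cells (0.54), and the highest in old cells was Calr with Pdia4 (0.49).

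Genes of the same pathway outside the set had a median difference near 0. From 6 lists of 148 further ER genes, 79 were measured, counting names that share a row once. Of these 79, 11 were higher in old cells by 0.5 or more (13.9%, against 8.22% of all measured genes) and 5 lower (against 10.3%), with a median difference of 0.05. Of 19 measured folding enzymes, 5 were higher (26.3%) and 2 lower. Serpinh1, the collagen chaperone Hsp47, was listed in 30.5% of young and 51.3% of old cells (difference 1.12), and Crtap, a partner of collagen prolyl 3-hydroxylase, in 12.2% and 24.4% (0.83). On the other side lay Prdx4, the ER peroxiredoxin (39% and 19.2%, -1.23), and Ppib, the proline isomerase cyclophilin B (56.1% and 48.7%, -0.50).

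Among the other translocation genes, 1 of 17 was higher (5.88%) and 1 lower by 0.5 or more, with a median of -0.01. Of all measured genes, 8.22% were higher and 10.3% lower. Sec11a, a catalytic subunit of signal peptidase, was in 14.6% of young and 33.3% of old cells (1.43), and Ssr2, the partner of Ssr1 in its complex, in 32.9% and 16.7% (-0.98). These 2 subunits of 1 complex thus lay on opposite sides, but Ssr2 is named because it was the lowest of its list. Sec61g, the channel's gamma subunit, differed by 0.46. Sec62 lay at -0.48, with 69.6% of its FPKM in 1 cell. Of 13 measured glycosylation genes 1 was higher (7.69%) and 2 lower (median -0.08). In neither list did the share of higher genes exceed the 8.22% of all measured genes. The 2 highest were the oligosaccharyltransferase subunits Krtcap2 (0.71) and Ddost (0.43). The 2 lowest were Rpn2 (-0.53), a subunit of the same enzyme, and Alg5 (-0.53), which makes the glucose donor of the glycan. These were named as the ends of their list, so their spread restates that choice.

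The lists that follow are short and stand beside 8.22% of all measured genes higher and 10.3% lower by 0.5 or more. Of 9 other degradation genes 2 were higher and 0 lower. The 2 were the selenoproteins Selk (41.5% and 48.7%, difference 1.07) and Vimp (26.8% and 41%, 0.81). Aup1 was at -0.24 and Erlec1, a lectin like Os9, at -0.38. Of 7 other stress response genes 2 were higher, Nupr1, a stress-induced chromatin protein (79.3% and 84.6%, 1.23), and Cebpb (15.9% and 34.6%, 0.63). The amino acid transporter chain Slc3a2 (-0.29) and Tmbim6, an inhibitor of ER-linked cell death (-0.26), were the lowest. None of 14 ER exit and retrieval genes passed 0.5 in either direction. They ran from -0.08 for Tmed3 and -0.07 for Sar1b to 0.46 for the cargo receptor Lman1 and 0.49 for Sar1a, a GTPase of the exit coat, of whose FPKM 64.1% lay in 1 cell.

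Fibroblast markers were compared because their level differed between the ages. Of the 10 on the list, 3 were listed in some young cell and 5 in some old cell. Those in old cells only were Mfap5 (2 cells) and Ly6a (1 cell). Their summed level ran from 0 to 1925 FPKM (median 8.33) in young and from 0 to 50431 (median 39.8) in old cells. That highest old sum was set by Fbln1 at 50365 FPKM in 1 cell, while Fbln1 was listed in 23 young and 23 old cells. Dcn, which encodes decorin, was listed in 34 young and 52 old cells, whereas Lum was in 22 and 11. At least 3 markers were in 3 young and 3 old cells. With cells listing 2 or more left out, 60 young and 54 old cells remained, and in them 10 of 26 members were higher by 0.5 or more, against 8.18% of measured genes, and 0 were lower, against 13.8%, with a median difference of 0.29. In these cells Hspa5 was at 1.7 and Hsp90b1 at 1.76, while Pdia6 was at 0.59, down from 1.03 in all cells, and Sec61a1 at 0.0046, down from 0.37.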

How the data were processed

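The authors deposited 1 table of FPKM for genes by 160 cells. Cufflinks 2.1.1 and build mm9 appear in the submitters' processing notes with no role stated. How reads shared between genes were counted is not given in the sources used here. Of 31199 rows, 7751 without a gene name were not used. They held a median of 47.2% of the FPKM of young and 43.8% of that of old cells, and 99.7% in 1 young cell. The summed FPKM of named genes ran from 29652.5 to 6.72e+06 in young cells (median 74835.1). In old cells it ran from 22242.5 to 7.38e+06 (median 74370.1). Rows sharing a name were summed, and a joint row counts for each gene it names. No 2 cells had identical columns. Per gene, the difference of mean log2(FPKM + 1) between ages, the share of cells at 1 FPKM with exact 95% intervals (scipy 1.17.1), and medians were computed; no test was made, since each age is 1 sample. This difference mixes how many cells list a gene with the level in them, and the code for it was tested on simulated data. The members and lists were chosen with earlier results of these data known. All members are accounted for; of each further ER list the 2 highest and 2 lowest measured genes are named. Promoters were read from RefSeq (GRCm38.p6) and searched for exact motifs. Wells without exactly 1 intact cell were excluded by microscopy before sequencing, per the labels' protocols, and no doublet caller was run. Alternatives changed the pseudocount, the scaling, the cells, the filter and the measure.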

Additional observations from a re-analysis of the deposited data

How the results depend on the processing

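The median over members stayed above 0 in all 11 alternatives. With a pseudocount of 0.1 it was 0.53, with 14 members higher and 2 lower by 0.5 or more, beside 17.1% and 22.6% of measured genes. With a filter at 25% of cells it was 0.97 over the 9 members that remained, against -0.04 over all genes that did. Of these 9 members, 7 were higher and 0 lower by 0.5 or more, beside 14.8% and 18.4% of genes. By the log2 ratio of mean FPKM it was 0.94, with 17 members higher and 4 lower, beside 31.9% and 32.3% of measured genes, and Canx turned to -4.97, set by 1 cell. Leaving out cells of few genes gave 13 higher members and 1 lower, beside 12.8% and 9.03% of measured genes. Keeping cells within the interquartile range of genes listed gave 11 and 1, beside 14% and 12.5%. With no filter, 9 of 36 members were higher and 0 lower, beside 1.22% and 1.54% of all 22866 gene names. The median was then 0.26. Of the 9 members that passed 0.5, 8 stayed above 0.5 in every alternative that measured them, all but Canx. The difference in median members per cell ran from 2 to 3 over its 9 alternatives, against 2.5. Leaving out cells with fibroblast markers was chosen after seeing the data. No paired analysis was possible because cell numbers are only names and no animal is given. Depth is unknown, so a gene not listed may be present.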
